A study of Mus musculus with 6 samples.

Results

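Pik3r5, Rgl1, Abr, Asap1, Tns3 and Mtss1 encode signalling proteins that link phosphoinositide 3-kinase (PI3K), small GTPases and cell adhesion to the actin cytoskeleton. They were brought together for the number of hnRNP UL1 ChIP-seq peaks at them in the tables described here, so their peak numbers and the differences between times are a description and carry no test. A peak belongs to a gene when its row names that gene as nearest, or when it lies inside the gene or less than 5 kb before its 5′ end. These rules gave 274 of 18624 peaks for the 6 genes, out of 7610 nearest genes named in the tables. The 274 peaks comprise 96 of 8425 at 0 h, 158 of 9046 at 4 h and 20 of 1153 at 10 h.

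The study mapped hnRNP UL1, a nuclear RNA-binding protein that acts in RNA processing and in the DNA damage response, on chromatin of RAW 264.7 cells. RAW 264.7 is a mouse macrophage line, and all libraries come from this line. Cells were untreated (0 h) or received 100 ng/ml lipopolysaccharide (LPS), the bacterial cell-wall component sensed by Toll-like receptor 4, for 4 h or 10 h. There was 1 ChIP library per time, so no difference between times has a replicate check and none was tested. Each peak is a position 2 bp wide, with the authors' annotation and nearest gene. Peak height, fold enrichment, q-value, extent and read depth are not among the columns, so every peak has equal weight and depth is unknown. All coordinates are GRCm38.

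The 4 h and 10 h tables end at lower gene identifiers than the 0 h table. Peaks were therefore compared only where the nearest gene has an identifier that each compared table reaches. For Pik3r5, Abr, Asap1, Tns3 and Mtss1 all 3 times can be compared, and for Rgl1 only 4 h and 0 h. This leaves 155 peaks at 4 h against 74 at 0 h, and 19 peaks at 10 h without Rgl1. Over all nearest genes in the identifiers common to the 3 times, the numbers of peaks at 0, 4 and 10 h were 1312, 5298 and 1152. Library depth and its part in these numbers could not be tested. Of 6 macrophage genes looked up for the cell label, Ctsb was named by 20 peaks at 4 h and 16 at 0 h, Spi1 by 8 and 0, Adgre1 by 2 and 0 and Csf1r by 1 and 1. No row named Cd68 or Itgam, and whether the 4 h table reaches their identifiers is not known here. A peak is not a measure of expression.

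Small GTPases switch between a GTP-bound active and a GDP-bound inactive state. Guanine nucleotide exchange factors (GEFs) load them with GTP, and GTPase-activating proteins (GAPs) end the signal. In macrophages, PI3K lipids, Ral and Arf GTPases and integrin adhesions together direct spreading, migration and phagocytosis. Pik3r5 encodes the regulatory subunit through which PI3K gamma responds to G protein beta-gamma subunits. Rgl1 is a Ras effector of the RalGDS family with GEF activity for Ral. Abr, a relative of Bcr, carries both a GEF and a GAP domain. Asap1 is an Arf GAP found at focal adhesions and podosomes. Tns3 is a tensin, an adaptor that ties integrin tails to actin. Mtss1 is an I-BAR protein that bends the plasma membrane and interacts with actin.

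The genes lie on 3 chromosomes. Pik3r5 (ENSMUSG00000020901) spans 65.7 kb at chr11:68432125-68497849 on the plus strand. The other 5 are on minus strands. Rgl1 (ENSMUSG00000026482) spans 250 kb at chr1:152516762-152766308. Abr (ENSMUSG00000017631) spans 207 kb at chr11:76416732-76623324. Asap1 (ENSMUSG00000022377) spans 296 kb at chr15:64086840-64382941. Tns3 (ENSMUSG00000020422) spans 233 kb at chr11:8431652-8664758. Mtss1 (ENSMUSG00000022353) spans 143 kb at chr15:58941234-59083956. Distances below run along the strand from the 5′ end of these spans, with negative values upstream.

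Promoter windows of 4 of the genes are shown because no hnRNP UL1 peak position fell inside any of them. Each window holds 250 bases before and 50 bases after an annotated RefSeq start (GRCm38.p6), written 5′ to 3′ on the gene's strand. RefSeq windows were matched for Rgl1 (2), Tns3 (1), Pik3r5 (1) and Abr (5), and the window nearest to a 4 h peak is printed for each. Capitals mark every match to the motifs searched on both strands.
Pik3r5, chr11:68431875-68432174, plus strand: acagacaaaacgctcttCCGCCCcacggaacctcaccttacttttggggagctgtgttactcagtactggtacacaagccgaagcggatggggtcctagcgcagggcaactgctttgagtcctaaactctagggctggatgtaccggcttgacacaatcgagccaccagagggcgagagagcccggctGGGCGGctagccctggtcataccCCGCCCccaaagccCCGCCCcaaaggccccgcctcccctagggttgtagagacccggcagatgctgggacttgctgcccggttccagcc
Rgl1, chr1:152766256-152766555, minus strand: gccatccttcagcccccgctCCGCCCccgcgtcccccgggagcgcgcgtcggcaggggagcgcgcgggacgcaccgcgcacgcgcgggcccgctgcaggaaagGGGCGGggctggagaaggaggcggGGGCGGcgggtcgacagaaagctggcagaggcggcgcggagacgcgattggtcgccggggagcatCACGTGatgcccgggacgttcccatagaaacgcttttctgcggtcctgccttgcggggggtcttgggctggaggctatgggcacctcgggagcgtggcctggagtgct
Abr, chr11:76571335-76571634, minus strand: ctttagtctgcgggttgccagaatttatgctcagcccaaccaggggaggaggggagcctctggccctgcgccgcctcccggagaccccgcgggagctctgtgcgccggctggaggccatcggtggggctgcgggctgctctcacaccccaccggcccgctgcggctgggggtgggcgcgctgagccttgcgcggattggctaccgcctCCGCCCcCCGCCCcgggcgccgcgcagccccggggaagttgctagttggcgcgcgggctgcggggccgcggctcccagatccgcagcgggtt
Tns3, chr11:8664486-8664785, minus strand: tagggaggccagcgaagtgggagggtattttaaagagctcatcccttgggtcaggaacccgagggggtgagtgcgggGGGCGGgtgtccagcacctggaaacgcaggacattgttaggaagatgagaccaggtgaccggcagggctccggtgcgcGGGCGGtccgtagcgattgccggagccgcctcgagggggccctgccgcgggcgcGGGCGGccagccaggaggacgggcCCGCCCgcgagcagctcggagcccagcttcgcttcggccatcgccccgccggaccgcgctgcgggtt
The motifs searched were AP-1 (TGANTCA), a PU.1 motif (GAGGAAGT), the ETS core (CCGGAA), the NF-kB consensus, the SP/KLF GC box (GGGCGG), the E-box (CACGTG) and C/EBP (TTGCNNAA). All capitals above are GC boxes or their reverse complement, apart from the E-box in the Rgl1 window. The GC box occurs 4 times in the Pik3r5 window, 3 times in that of Rgl1, 2 times in that of Abr and 4 times in that of Tns3. Of 32851 windows of the same length in the reference, 35.7% hold a GC box and 7.15% an E-box. The other motifs occur in 7.81% (AP-1), 3.20% (PU.1), 14.9% (ETS core), 0.411% (NF-kB) and 10.8% (C/EBP) of these windows. The GC content is 62.0% for Pik3r5, 73.3% for Rgl1, 74.7% for Abr and 70.7% for Tns3, beside a median of 52.7% over all windows. The 4 windows hold 16, 39, 33 and 33 CpG in that order, beside a median of 7.

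None of the printed windows held a peak, and the distance from their starts to the nearest peak varied. Relative to the start, the nearest 4 h peak lay at 950 bp for Pik3r5, at -518 bp for Rgl1, at -1164 bp for Abr and at 4540 bp for Tns3. The nearest 0 h peak lay at -896 bp for Pik3r5, at -12714 bp for Rgl1, at -18525 bp for Abr and at 11325 bp for Tns3. These distances were taken over all peaks, also those in rows left out of the comparison between times. The 0 h peak nearest to the Abr start, at chr11:76589909, is in such a row and is not counted at Abr below. Of the 124 peaks that these 4 genes held at 4 h none lay in any of the 9 windows, and likewise none of 55 at 0 h. A count of 0 allows a share of up to 2.42% at 4 h and 5.455% at 0 h, for counting error only. Of the peaks of all other genes in the same identifiers, 2.75% (244 of 8890) at 4 h and 6.28% (135 of 2151) at 0 h lay in a window. The limits, set at 3 counts, lie close below these shares. They are tighter than the upper ends of the Clopper-Pearson intervals given for other shares. The counts of 0 do not set the 4 genes apart. Asap1 and Mtss1 have no window here and are left out of these counts. Genes with many peaks were chosen, and the other genes were not matched to them in this.

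Most of the 6 genes held more peaks at 4 h than at the other times, with Mtss1 the exception. At 0, 4 and 10 h there were 6, 24 and 6 peaks at Pik3r5. Abr had 3, 24 and 1 peaks, and Asap1 had 6, 23 and 5. Tns3 had 14, 33 and 3 peaks. At Mtss1 the highest number was at 0 h, with 13, 8 and 4 peaks. Rgl1 had 43 peaks at 4 h and 32 at 0 h. In these counts 5 of 6 genes had more peaks at 4 h than at 0 h, where 80.9% of 3435 nearest genes did (76.9% of the 2104 that all 3 times share). For the 5 genes comparable at 10 h, all had fewer peaks at 10 h than at 4 h, where 79.2% of 2104 genes did. Since the genes were picked on these tables, neither count is a result about them.

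**Figure D1:**
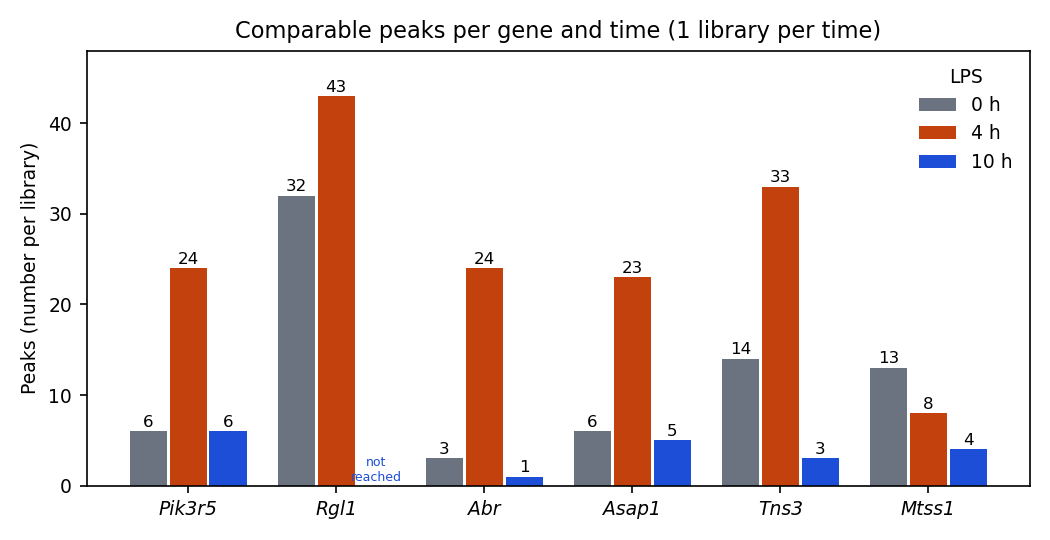
Number of comparable hnRNP UL1 peaks (vertical axis) at each gene (horizontal axis) at 0 h, 4 h and 10 h of LPS, 1 library per time, each bar 1 count. The 4 h bar is the tallest for 5 of the 6 genes, and for Mtss1 the 0 h bar is, with 13 peaks.

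Taken over the 6 genes, peaks at 4 h numbered 155 against 74 at 0 h, a ratio of 2.09. Over all rows of the same identifiers the ratio was 4.07 (9045 against 2225). The ratio of 4 h over 0 h was 8.0 at Abr, 4.0 at Pik3r5, 3.83 at Asap1, 2.36 at Tns3, 1.34 at Rgl1 and 0.615 at Mtss1. Only Abr lay above the ratio of all rows. Peaks at 10 h over the 5 comparable genes numbered 19 against 112 at 4 h, a ratio of 0.170, beside 0.217 over all rows (1152 against 5298). The ratio of 10 h over 4 h ran between 0.0417 at Abr and 0.5 at Mtss1.

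In rank by rows naming the gene, Tns3 ranked 3 of 2104 genes at 0 h and at 4 h. Pik3r5 ranked 9 at 4 h, Asap1 11 and Abr 12, while Mtss1 ranked 97. At 0 h Mtss1 ranked 4. Rgl1 ranked 4 at 4 h and 2 at 0 h of 3435 genes. The median gene of the common identifiers was named by 1 peak at 4 h and by 0 at 0 h and 10 h. At least 10 peaks at 4 h named 3.85% of the 2104 genes, and among them were Pik3r5, Abr, Asap1 and Tns3.

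**Figure D2:**
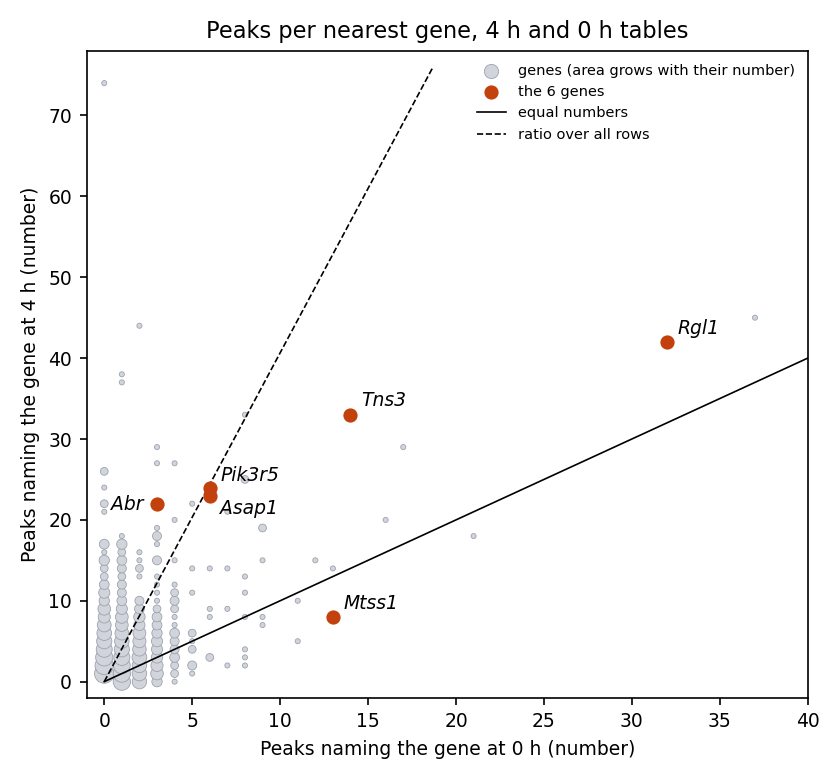
Peaks naming each of 3435 genes at 4 h (vertical axis, number) and at 0 h (horizontal axis, number); grey points are genes, with area growing with how many share a position, and orange points are the 6 genes. The solid line marks equal numbers and the dashed line the ratio of 4.07 over all rows; Mtss1, with 8 peaks at 4 h and 13 at 0 h, lies below both lines, and Abr, with 22 and 3, lies above both.

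At 4 h Pik3r5 was the most densely covered of the 6 genes. Inside the gene it held 7.61, 36.5 and 9.13 peaks per 100 kb at 0, 4 and 10 h. The next gene at 4 h was Rgl1, with 14.8 per 100 kb at 4 h and 10.8 at 0 h, and at 0 h Rgl1 was the densest. Both Rgl1 values count comparable peaks over the full gene length, although its 5′ portion cannot be compared between times. The whole 0 h table places 37 peaks in Rgl1, against the 27 counted in this density. At 4 h the median gap between neighbouring Pik3r5 peaks was 1.62 kb, and 12 of 24 lay in a stretch between 20.4 and 39.7 kb from the 5′ end. All 24 peaks at 4 h lay in the gene, 18 of them in intron 1 of 18. At 0 h 4 of 6 peaks and at 10 h 5 of 6 lay in the same intron. Of the others, 1 peak at 0 h lay 896 bp upstream of the gene.

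Between 19 and 27 kb, a stretch chosen after its values were seen, Pik3r5 held 2, 5 and 4 peaks at 0, 4 and 10 h. The peaks of different times lay close together in this intron without falling on one base. A 10 h peak at chr11:68458730 was 44 bp from a 4 h peak at chr11:68458686. Another 10 h peak at chr11:68452630 was 133 bp from a 4 h peak at chr11:68452497. All 6 peaks at 10 h lay 44 to 728 bp from a 4 h peak, and the 6 peaks at 0 h lay 172 to 1846 bp from one. How often peaks this dense would lie so close was not tested.

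Rgl1 carried the most peaks of the 6 genes at both times that reach it. At 4 h 37 of its 43 peaks lay in the gene, as did 27 of 32 at 0 h, and 5 at each time lay downstream of its 3′ end. Inside the gene 36 of 37 peaks at 4 h and 27 of 27 at 0 h lay past its midpoint, toward the 3′ end. Rows of the 0 h table left out of this count place 10 more peaks in the gene, between 13.5 and 98.1 kb from the 5′ end. Their nearest genes, Apobec4 among them, have identifiers that the 4 h table does not reach, so the 5′ portion of Rgl1 cannot be compared between times. Intron 3 of 18 held 10 peaks at 4 h and 6 at 0 h, intron 4 held 8 and 8, and intron 5 held 3 and 4. The densest 20 kb held 10 peaks at each time, from 178 to 197 kb at 4 h and from 183 to 200 kb at 0 h.

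Most of the members' peaks at 4 h and 0 h that lay within 500 bp of a peak of the other time were at Rgl1. Within 500 bp of a 0 h peak lay 10 of 43 peaks at 4 h (23.3%, Clopper-Pearson 95% interval 11.8 to 38.6%). In the other direction 12 of 32 peaks at 0 h lay within 500 bp of a 4 h peak (37.5%, 21.1 to 56.3%). The closest pair, 14 bp apart, was downstream of the gene at chr1:152509912 at 4 h and chr1:152509898 at 0 h. In intron 3 a pair lay 36 bp apart at chr1:152615553 at 4 h and chr1:152615517 at 0 h. In intron 4 a pair lay 51 bp apart at chr1:152581010 at 4 h and chr1:152581061 at 0 h. Near the 5′ end, 1 peak at 4 h lay 515 bp upstream and was assigned by its row to the neighbour Arpc5, a subunit of the Arp2/3 complex. A 10 h peak named for Arpc5 lay 841 bp upstream, where the 10 h table can be read for Arpc5 but not for Rgl1.

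Abr had the largest ratio of 4 h over 0 h among the 6 genes. Its 3 peaks at 0 h lay 16.8 kb upstream, at 118 kb and at 142 kb. The 24 peaks at 4 h fell into a 5′ group between 35.0 and 61.0 kb and a 3′ group from 126 to 204 kb, with 65.0 kb between them, and 1 peak 15.5 kb upstream. Near the 3′ end, 8 peaks at 4 h lay between 188 and 204 kb. By the authors' annotation 18 of the 24 were intronic and 5 lay 1 to 3 kb from a start, and 2 named Timm22 as nearest gene. The single 10 h peak, at chr11:76586115 in intron 1, was 239 bp from a 4 h peak, and the 0 h peak at chr11:76481635 was 70 bp from a 4 h peak at chr11:76481705. The 0 h table places 6 more peaks in Abr, in rows whose nearest genes have higher identifiers, so that the whole 0 h table gives 9. Of these 6, 1 has a nearest gene that the 4 h table also reaches, where 4 h has 3, so with it the numbers are 27 at 4 h and 4 at 0 h. These 3 peaks at 4 h lay from 18.2 to 33.6 kb, before the 5′ group given above. The other 5 peaks at 0 h lay from 84.8 to 94.2 kb, between the 5′ and 3′ groups. Their nearest gene is one that the 4 h table does not reach, so the 65.0 kb between the groups cannot be read in full at 4 h.

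Asap1 peaks all lay inside the gene. Introns held 6 of 6 peaks at 0 h, 19 of 23 at 4 h and 4 of 5 at 10 h. Intron 1 of 27 took 3, 15 and 1 of them. Between 110 and 150 kb, chosen after its values were seen, the counts at 0, 4 and 10 h were 1, 8 and 0. The 6 peaks at 0 h lay 2907 to 19884 bp from the nearest 4 h peak, with a median of 6021 bp. None of 6 within 500 bp allows a share of up to 50%, and at all other genes of the common identifiers the share was 19.4%. Of 5 peaks at 10 h, 1 lay within 500 bp of a 4 h peak, 142 bp from it at chr15:64222835. At 4 h 2 peaks, 69.6 and 70.9 kb from the 5′ end, were annotated within 1 kb of an internal start.

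Tns3 had peaks both in the gene and upstream of it. In the gene there were 9, 25 and 2 peaks at 0, 4 and 10 h, and upstream there were 4, 8 and 1. The upstream peaks reached out to 44.2 kb at 4 h and 46.8 kb at 0 h, and the authors annotated all 13 as distal intergenic. In the gene, 19 of 25 peaks at 4 h and 7 of 9 at 0 h lay before the midpoint, toward the 5′ end, and intron 1 of 30 held 9 at 4 h and 3 at 0 h. No 4 h peak was annotated within 1 kb of a start, against 2 at 0 h, and 0 of 33 allows a share of up to 9.09%. About 24 kb upstream, Tns3 held the only place where peaks of all 3 times followed each other at steps of at most 500 bp. There, from chr11:8688582 to chr11:8689569, lay 2 peaks at 4 h and 1 each at 0 h and 10 h, over 987 bp.

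**Figure D3:**
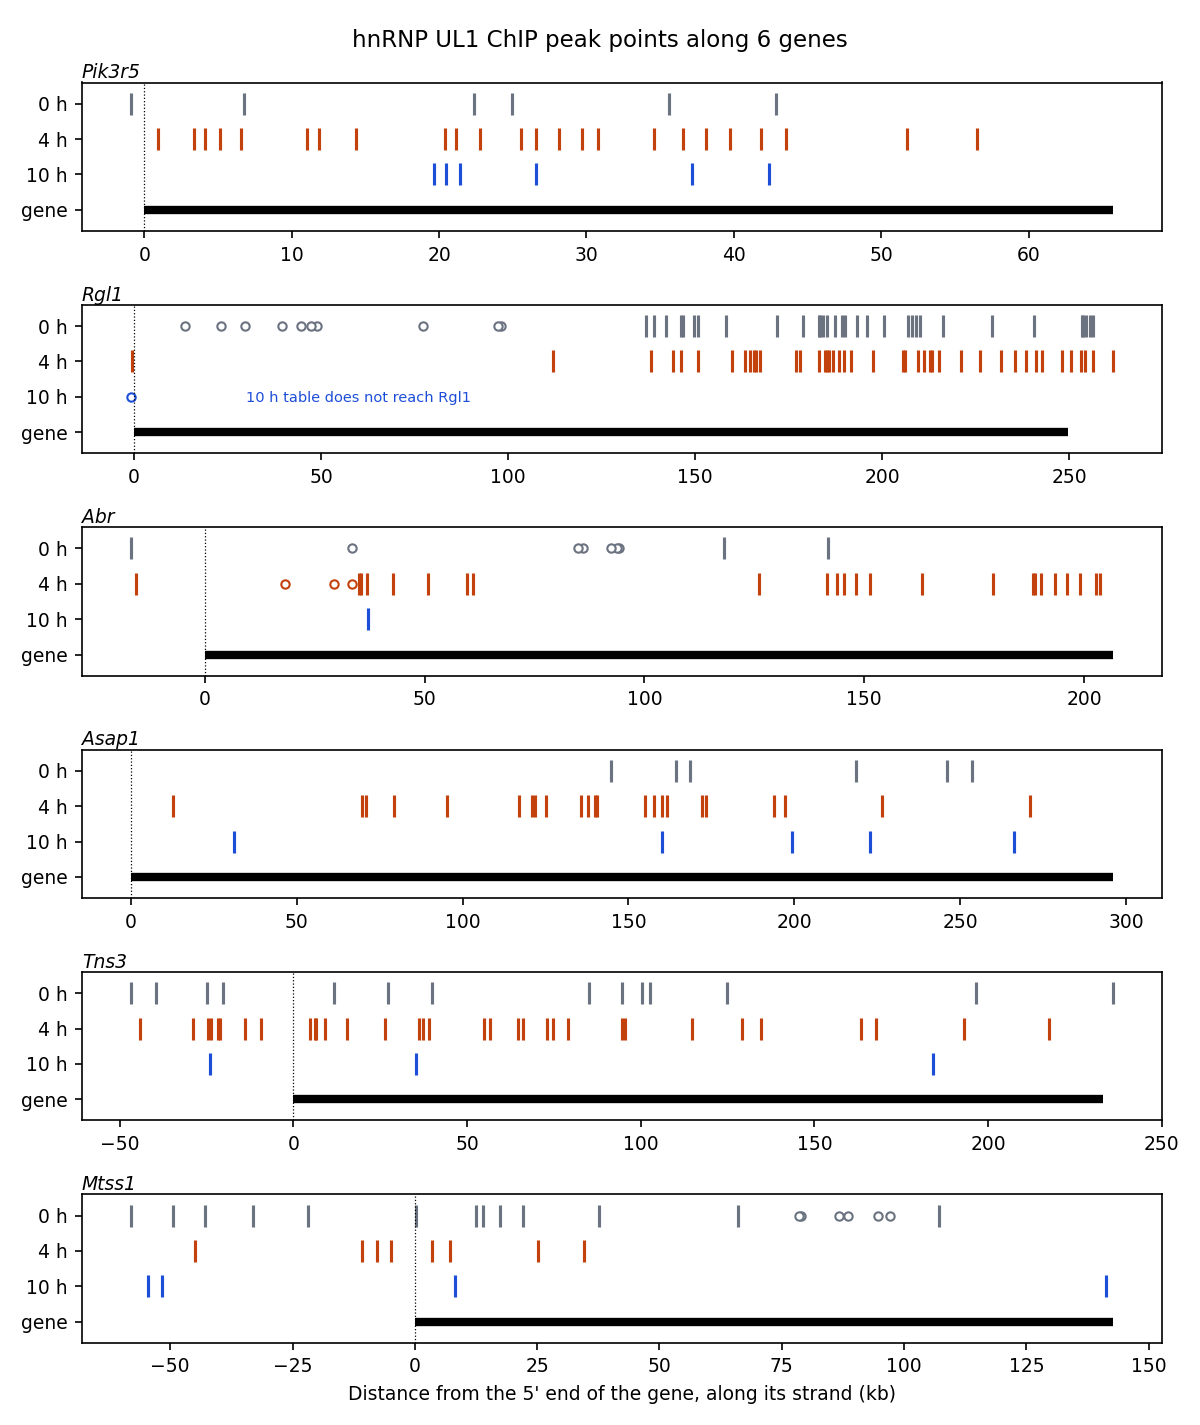
Peak positions along each gene at 0 h, 4 h and 10 h (rows), in kb from the 5′ end along the strand (horizontal axis, one scale per gene), with the gene as a black bar. Vertical ticks are peaks that can be compared between times and open circles are peaks in rows that cannot. Pik3r5 is covered most densely at 4 h. Rgl1 ticks crowd toward the 3′ end, but its 5′ portion cannot be compared between times. There, 10 open circles at 0 h lie between 13.5 and 98.1 kb.

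Mtss1 was the only member with fewer peaks at 4 h than at 0 h. In the gene it had 8, 4 and 2 peaks at 0, 4 and 10 h, and upstream of it 5, 4 and 2. Among the 2104 genes of the common identifiers, 11.1% had more peaks at 0 h than at 4 h. Of 7 genes with at least 10 peaks at 0 h, 4 had more at 0 h (57.1%). These were Psap with 18 peaks at 4 h and 21 at 0 h, Gpr137b with 10 and 11, Dpys with 5 and 11, and Mtss1 itself with 8 and 13. The other 3 were Tns3, Ctsb and Zmiz1. These 7 genes were picked by their 0 h number, so the share is a description.

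Mtss1 peaks spread over the gene and far upstream. At 0 h 5 peaks lay 21.8 to 58.0 kb upstream, 6 lay between 208 bp and 37.6 kb inside, and the other 2 lay at 66.0 and 107 kb. At 4 h 1 peak lay 45 kb upstream, and 7 lay between 10.9 kb upstream and 34.7 kb inside the gene. At 10 h 2 peaks lay 51.6 and 54.5 kb upstream, 1 lay in intron 1 and 1 lay near the 3′ end, in a row that names Ndufb9. No Mtss1 peak lay within 500 bp of a peak of another time. For the 8 peaks at 4 h this allows a share of up to 37.5%, and for the 13 at 0 h up to 23.1%. At all other genes of the common identifiers 4.86% of 4 h peaks lay near a 0 h peak and 19.4% of 0 h peaks near a 4 h peak, so these counts do not set Mtss1 apart. The 0 h peaks lay 2043 to 42837 bp from the nearest 4 h peak. No peak of any time was annotated within 1 kb of a start, although the 0 h peak at chr15:59083748 lay 208 bp inside the RefSeq span, since its row measures from another start. The 0 h table places 6 more peaks in intron 3 and beside it, between 78.5 and 97.2 kb, in rows with a nearest gene that the 4 h and 10 h tables do not reach.

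Over the 6 genes, 15 of 155 peaks at 4 h lay within 500 bp of a 0 h peak (9.68%, 5.52 to 15.5%), beside 393 of 8890 (4.42%) at all other genes. Of the 74 peaks at 0 h, 17 lay within 500 bp of a 4 h peak (23.0%, 14.0 to 34.2%), beside 383 of 2151 (17.8%). Rgl1 supplied 10 of the 15 and 12 of the 17. Without Rgl1, 5 of 112 peaks at 4 h lay near a 0 h peak (4.46%, 1.47 to 10.1%), beside 4.86% (252 of 5185) elsewhere. The higher share of 4 h peaks over the 6 genes was thus not seen without Rgl1. In the other direction 5 of 42 peaks at 0 h lay near a 4 h peak (11.9%, 3.98 to 25.6%), beside 19.4% (246 of 1270) elsewhere. Of 19 peaks at 10 h, 6 lay near a 4 h peak (31.6%, 12.6 to 56.6%), beside 20.1% (228 of 1133), and Pik3r5 supplied 3 of the 6. The other genes were not matched to the members in number of peaks per gene. The intervals cover counting error only, since peaks of 1 gene and 1 library are not independent.

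**Figure D4:**
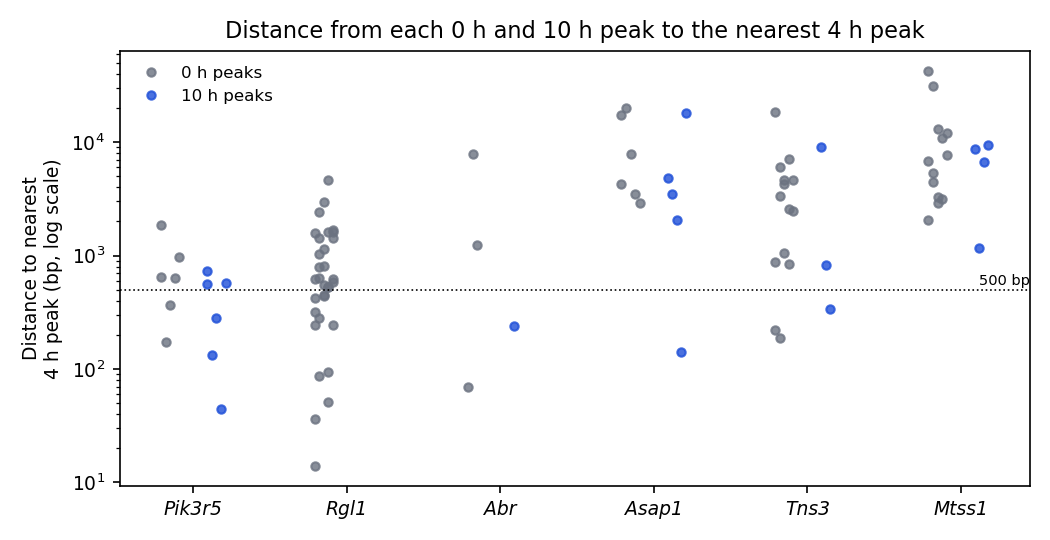
Distance in bp (vertical axis, log scale) from each 0 h and 10 h peak to the nearest 4 h peak, by gene (horizontal axis); each point is 1 peak and the dotted line marks 500 bp. All 12 Pik3r5 points lie between 44 and 1846 bp, and the Mtss1 points at 0 h lie between 2043 and 42837 bp.

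By the authors' annotation, members' peaks were mostly intronic. The genes were chosen for many peaks, and peaks inside a gene were assigned to it, so these shares are a description. How far they follow from this choice was not tested. At 4 h 115 of 155 peaks were in introns (74.2%, 66.6 to 80.9%), beside 40.6% of 8890 peaks at all other genes. At 0 h the share was 67.6% of 74 (55.7 to 77.995%), beside 33.2% of 2151. A start within 1 kb was annotated for 5.16% of members' peaks at 4 h (2.25 to 9.92%), beside 20.2% elsewhere, and for 6.76% at 0 h (2.23 to 15.1%), beside 34.3%. For the 5 genes with all times, intronic peaks made up 61.9%, 75.0% and 68.4% at 0, 4 and 10 h, and the rest of the table gave 31.4%, 39.96% and 41.7%. The 6 genes are 65.7 to 296 kb long, and the part of gene length in these shares was not tested.

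**Figure D5:**
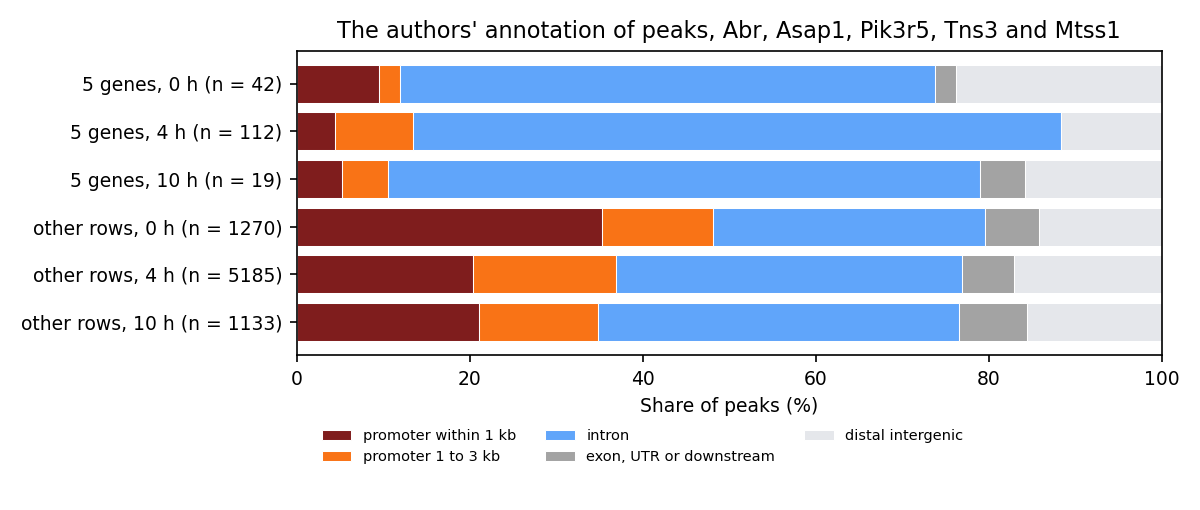
Share of peaks (horizontal axis, %) in each class of the authors' annotation for Pik3r5, Abr, Asap1, Tns3 and Mtss1 (upper bars) and for all other rows with comparable identifiers (lower bars) at 0 h, 4 h and 10 h, with the number of peaks n beside each bar. The intron class fills 61.9 to 75.0% of the upper bars, against 31.4 to 41.7% of the lower bars.

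Other genes of the same pathways were read from lists of known members. From each list up to 4 genes with the most peaks at 4 h are named. Genes with more peaks at 0 h are therefore counted but not named. Of the PI3K and phosphoinositide list, 11 genes other than Pik3r5 were named by a peak, with 68 peaks at 4 h and 21 at 0 h. More peaks at 4 h than at 0 h were found for 8 of the 11 and fewer for 2, where 80.9% of all 3435 genes had more at 4 h. In the identifiers that 4 h and 0 h share, no list below stood above that share either. Over the identifiers common to all times, 76.9% of 2104 genes had more at 4 h. There 3 of 3 PI3K genes, 7 of 8 actin assembly genes and 7 of 9 adhesion genes had more at 4 h. For the Ral and Ras list it was 3 of 6 and for the Arf list 6 of 9. Pik3ap1, the adaptor that brings PI3K to Toll-like and B cell receptors, had 17 and 1. Rptor, the scaffold of mTORC1, had 15 and 1, Pip4k2a, a phosphoinositide kinase, had 12 and 3, and the phosphatase Inpp5d had 8 and 4.

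Among Ral and Ras regulators other than Rgl1, 6 of 10 named genes had more peaks at 4 h and 3 had more at 0 h, with 25 peaks at 4 h and 6 at 0 h in all. Ralgds, the exchange factor that gives the family its name, had 8 and 0. The Ras GAPs Nf1 and Rasa1 had 4 and 0 and 3 and 0, and the Ras GEF Rasgrp1 had 4 and 0.

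Of 13 Arf regulators other than Asap1, 8 had more peaks at 4 h and 1 more at 0 h, with 26 and 10 peaks in all. The Arf GEFs Cyth1 and Psd4 had 5 and 2 and 5 and 0, the GAP Adap2 had 3 and 0, and the GTPase Arf4 had 3 and 2. None of the 13 reached 10 peaks at 4 h. Of 19 adhesion and integrin genes other than Tns3, 14 had more peaks at 4 h and 3 more at 0 h, with 68 and 24 peaks. The focal adhesion proteins Lims1 and Vcl had 14 and 1 and 11 and 1, and the integrin subunits Itga6 and Itgb5 had 6 and 2 and 6 and 4. Of 13 I-BAR, WAVE and actin assembly genes other than Mtss1, 10 had more peaks at 4 h and 2 more at 0 h, with 60 and 23 peaks. Actr2 of the Arp2/3 complex had 17 and 3, the Ena/VASP protein Evl had 9 and 2, the I-BAR protein Baiap2 had 7 and 2, and Cyfip2 of the WAVE complex had 7 and 4. The ratio of 4 h over 0 h was 4.17 for the Ral and Ras list and between 2.6 and 3.24 for the other 4 lists, beside 4.07 over all rows. Over the identifiers common to all times the order changed. There the ratio was 2.25 for the Ral and Ras list and for the Arf list, 3.14 for the actin list, 5.0 for the PI3K list and 5.375 for the adhesion list, beside 4.04 over all rows. These ratios rest on 2 to 14 peaks at 0 h, and no list had a test.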

How the data were processed

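Chromatin of RAW 264.7 cells was precipitated with an hnRNP UL1 antibody, and the 3 ChIP peak tables (1 per time, grouped by title) were used; input libraries were not used here. MACS2 2.1.0, BWA 0.7.12 and CASAVA 1.8 are listed, with GRCm38 (mm10), per the submitters' processing notes; roles, settings and thresholds are not given in the sources used. Each deposited row holds, per the file headers, a position, an annotation, the nearest gene and the distance to its start. The sources used do not say if a position is a summit or a middle. Counts of peaks were computed from these positions; no score, fold, q-value or depth was available to weight them.

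The tables are sorted by gene identifier. The last row of the 4 h table, which is incomplete, was left out. Times were compared for identifiers below ENSMUSG00000022416 (all times; 2104 genes) or below ENSMUSG00000027620 (4 h and 0 h; 3435 genes). Gene spans and promoter windows come from RefSeq (GRCm38.p6), where 98.3% of 5701 gene names were found. Windows of 5 kb upstream, a distance of 500 bp for a shared position and a gap of 1000 bp for merged peaks were used. Shares have exact Clopper-Pearson 95% intervals, and the limit of a count of 0 is 3 counts. With 1 library per time no test was made. Members and gene lists were chosen with earlier results of these data known. Of the gene lists, 1 is not reported here. Named genes are the 6 members, up to 4 genes per list with the most 4 h peaks, neighbours named by members' rows, and macrophage genes for the cell label. Psap, Gpr137b, Dpys and Zmiz1 were named after their values were seen. Alternatives were the counted region, merged peaks, distances of 200 and 1000 bp, wider promoters, protein-coding genes only and each member left out; the longer identifier range for Abr, the whole 0 h table and the ratio without each member were added after seeing the data. The counting was tested on simulated data and recovered 200 of 200 genes. Python 3.11.15, pandas 2.3.3, scipy 1.17.1, numpy 2.4.6 and matplotlib 3.10.9 were used.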

Additional observations from a re-analysis of the deposited data

Results flagged for a closer look

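The 0 h table holds peaks inside 3 of the genes in rows that the comparison between times could not use, because their nearest gene has an identifier outside the compared range. There were 10 such 0 h peaks in Rgl1, 6 in Abr and 6 in Mtss1. They were singled out as signal in data outside the comparison. With them the whole 0 h table gives 42 peaks at Rgl1, 9 at Abr and 19 at Mtss1. No such rows were found for Pik3r5, Asap1 or Tns3. The 4 h and 10 h tables do not reach most of these identifiers, so no 4 h or 10 h number can be set beside them, except for 1 row in Abr.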

How the results depend on the processing

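The number of peaks at the 6 genes stayed within 1.5 times under every way of counting that was run: 0 h gave between 57 and 96, 4 h between 136 and 155, and 10 h between 16 and 19. The ratio of 4 h over 0 h ran between 1.85 (without Abr) and 2.67 (without Rgl1), and that of 10 h over 4 h between 0.160 and 0.170. For single genes, 91 of 100 alternative values stayed close to the reported one, 9 moved and 0 reversed, and the sign of the difference between 4 h and 0 h was kept in 24 of 24. The moved values were Abr at 0 h (9 in the whole table), Tns3 at 0 h (9 in the gene) and Mtss1 (8 at 0 h, 4 or 5 at 4 h and 2 at 10 h when upstream peaks are left out).

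Shares of close positions depend on the distance, as a wider distance takes in more pairs. Of 4 h peaks 5.16% lay within 200 bp and 18.7% within 1000 bp of a 0 h peak, beside 2.43% and 6.96% at all other genes. Of 0 h peaks 10.8% and 41.9% lay within these distances of a 4 h peak, beside 9.90% and 25.6%. The other genes were not matched in number of peaks. None of 19 peaks at 10 h had a 0 h neighbour within 200 bp (0%, interval up to 17.6%). At all other genes the share was 4.41% (50 of 1133), so this count does not set the members apart. With starts up to 3 kb the promoter share at 4 h was 14.2%. Without Pik3r5 the promoter share at 10 h was 0, since the only such peak is at Pik3r5. The share of genes with more peaks at 4 h was 76.9%, and 76.8% for protein-coding genes. No paired analysis was possible because there is 1 library per time and no test. Depth is unknown, so a missing peak may mean no binding or too few reads.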
